A study of Mus musculus and Acomys cahirinus with 25 samples.

Results

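The interleukins and their receptors were followed through healing skin of the laboratory mouse and the African spiny mouse. They were taken as every gene of the count files whose symbol begins with Il followed directly by a number, which gave 83 of 24500 genes. By family these were 11 IL-1 family ligands and inhibitors, 9 IL-1 family receptors, 10 genes of the gp130 cytokines and their receptors, 17 of the common gamma chain and IL-4/IL-13 system, 4 of the common beta chain, 11 of the IL-10 and IL-20 family, 6 of IL-12 and IL-23, 11 of the IL-17 family, the antisense transcript Il1bos, and Il16, Il34 and Il4i1, which belong to none of these. Cytokines that signal through the same chains under other names (Lif, Osm, Tslp and the like) are not members and were counted as a separate list.

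The study took full-thickness back wounds of the laboratory mouse, in which new hair follicles form in the wound center and not at its margin, and of the spiny mouse, and profiled epidermis and dermis apart by RNA-seq. The laboratory mouse libraries all came from post-wound day (PWD) 14 wounds of mice wounded at 4 weeks of age. C57BL/6J was the main strain of the study; the labels give genotype but no strain. The 13 libraries were 2 of wild-type (WT) center epidermis, 2 of WT margin epidermis, 5 of WT center dermis, 2 of WT margin dermis and 2 of knockout (KO) center dermis. WT center dermis replicates 1 and 2 and replicates 3 to 5 have separate runs of library numbers, the latter next to the KO ones. The first set entered the comparison of regions and the second that with KO. The layer comparison and the check for outlying libraries used all 5. Pairs differed more across the sets (chi-square per degree of freedom 134 to 214) than within them (80.0 to 98.2). Whether the sets are batches is not recorded. The KO libraries are from K14-Cre-Twist1 mice, in which a keratin 14 promoter drives Cre against a conditional Twist1 allele in basal keratinocytes. These mice came from a cross of the conditional null with a KRT14-cre transgenic line, and the study's controls for them were Twist1+/+ mice. Because Cre acts in the epidermis, Twist1 in the dermis does not check the deletion; it stood at 76.9 and 44.6 CPM (reads of the gene scaled to a common library size of 1000000) in the KO dermis, at 112, 154, 60.8, 37.1 and 112 CPM in the WT center dermis and at 120 and 102 CPM in the WT margin dermis. The spiny mouse libraries came from WT Acomys cahirinus wounded at 2 months of age. Their epidermis was sampled once at PWD0, in 2 libraries each at PWD14 and PWD21 and once at PWD28, and their dermis in 2 libraries at PWD0, once at PWD14, in 2 at PWD21 and once at PWD28. These days are those of the labels; the study's own sample list gives days close to but not the same as these for the wounded spiny mouse skin. Both sexes were used in both species. Laboratory mouse layers were parted by dissection alone, spiny mouse layers after trypsin at 4 °C. Laboratory mouse epidermis was read paired-end and dermis single-end, both with strand, so read type and layer cannot be told apart there; all spiny mouse libraries were single-end without strand.

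Each laboratory mouse library had between 19413261 and 86532134 reads on genes, and each spiny mouse library from 5669760 to 34751956. A count of 3, used as the floor for a gene without reads, was worth 0.0344 to 0.155 CPM and 0.084 to 0.585 CPM respectively, and floors and intervals cover counting error only. Spiny mouse reads were aligned to the laboratory mouse genome, and 24.4 to 52.9% of them fell on genes against 57.7 to 69.8% for the laboratory mouse, so levels are compared within a species. Replicates are separate libraries; the study describes its bulk RNA-seq replicates as biologically independent, but the labels tie no library to an animal, and where libraries share one, p-values measure a spread that may be technical. The methods take center and margin from one wound and then part its layers, so libraries of different groups may also share wounds, and no fit here accounts for that. In the dermis, the summed level of 14 keratinocyte marker genes was 13.6 to 650 CPM in WT center, 2398 to 4479 CPM in WT margin, and 1082 and 38243 CPM in KO replicates 1 and 2, against 168308 to 221040 CPM in laboratory mouse epidermis.

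Interleukins are secreted cytokines that carry signals between immune cells, keratinocytes and fibroblasts. Those of the IL-1 family (IL-1α, IL-1β, IL-18, IL-33 and the IL-36 group, here Il1f6, Il1f8 and Il1f9) act through receptors with a Toll/IL-1 receptor domain and are, in skin, largely products of keratinocytes and myeloid cells. Most other families act through shared receptor chains (gp130, the common gamma chain, IL-10Rβ or IL-20Rβ) and the JAK and STAT proteins, while IL-17 receptors use an adaptor of their own. In bulk tissue a lower level can mean fewer cells of a type or less RNA per cell, which cannot be told apart.

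Different members led the levels in epidermis and dermis. Per kilobase of exon, the highest mean levels in laboratory mouse epidermis were those of Il1f8 (342.7 CPM per kb), Il1f6 (285), Il1f9 (210), the interleukin Il18 (206) and Il1f5, the IL-36 receptor antagonist (147). In laboratory mouse dermis the top was receptor chains: Il2rg, the common gamma chain (30.0 CPM per kb), Il13ra1 (28.3), Il6st, which encodes gp130 (25.1), and Il10rb (22.6). On the same scale, with laboratory mouse gene lengths, spiny mouse epidermis led with Il18 (287 CPM per kb), Il17rc, a chain of the IL-17 receptor (77.9), and Il1r2, the decoy receptor for IL-1 (74.7). In spiny mouse dermis the mean over all days was highest for Il1b (56.0, from 20.4 to 146 over the 6 libraries) and Il1r2 (47.4, from 2.85 to 175); the high Il1r2 values were those of unwounded skin.

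Members with a mean of at least 1 CPM numbered 45 in laboratory mouse epidermis, 49 in its dermis, 50 in spiny mouse epidermis and 49 in spiny mouse dermis. Those at 10 CPM or more numbered 24, 30, 23 and 19. No read was counted in any library for 17, 16, 4 and 3 members. In laboratory mouse epidermis those 17 included Il4, Il5, Il9, Il13, Il17a, Il21, Il22, Il31 and Il20, and in its dermis the 16 included Il4, Il9, Il17a, Il17f, Il21, Il22, Il24 and Il31. Receptor chains of the common gamma chain system were read in both layers and both species. Il4ra was at 32.0 to 308 CPM over the 9 laboratory mouse dermis libraries (median 87.7 CPM), at 41.8 to 173 CPM in the 4 epidermis libraries, and at 13.6 to 27.1 and 8.62 to 23.8 CPM in the 6 spiny mouse libraries of epidermis and dermis. Il7r, the receptor for IL-7, was at 9.94 to 56.2 CPM in laboratory mouse dermis and 3.80 to 11.5 CPM in its epidermis. Il34 was at 11.1 to 65.4 CPM in laboratory mouse dermis, and in spiny mouse dermis it kept to 9.86 to 15.5 CPM over all days. Together the members took 0.131 to 0.421% of the reads on genes in laboratory mouse libraries and 0.0516 to 0.176% in spiny mouse libraries.

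**Figure D1:**
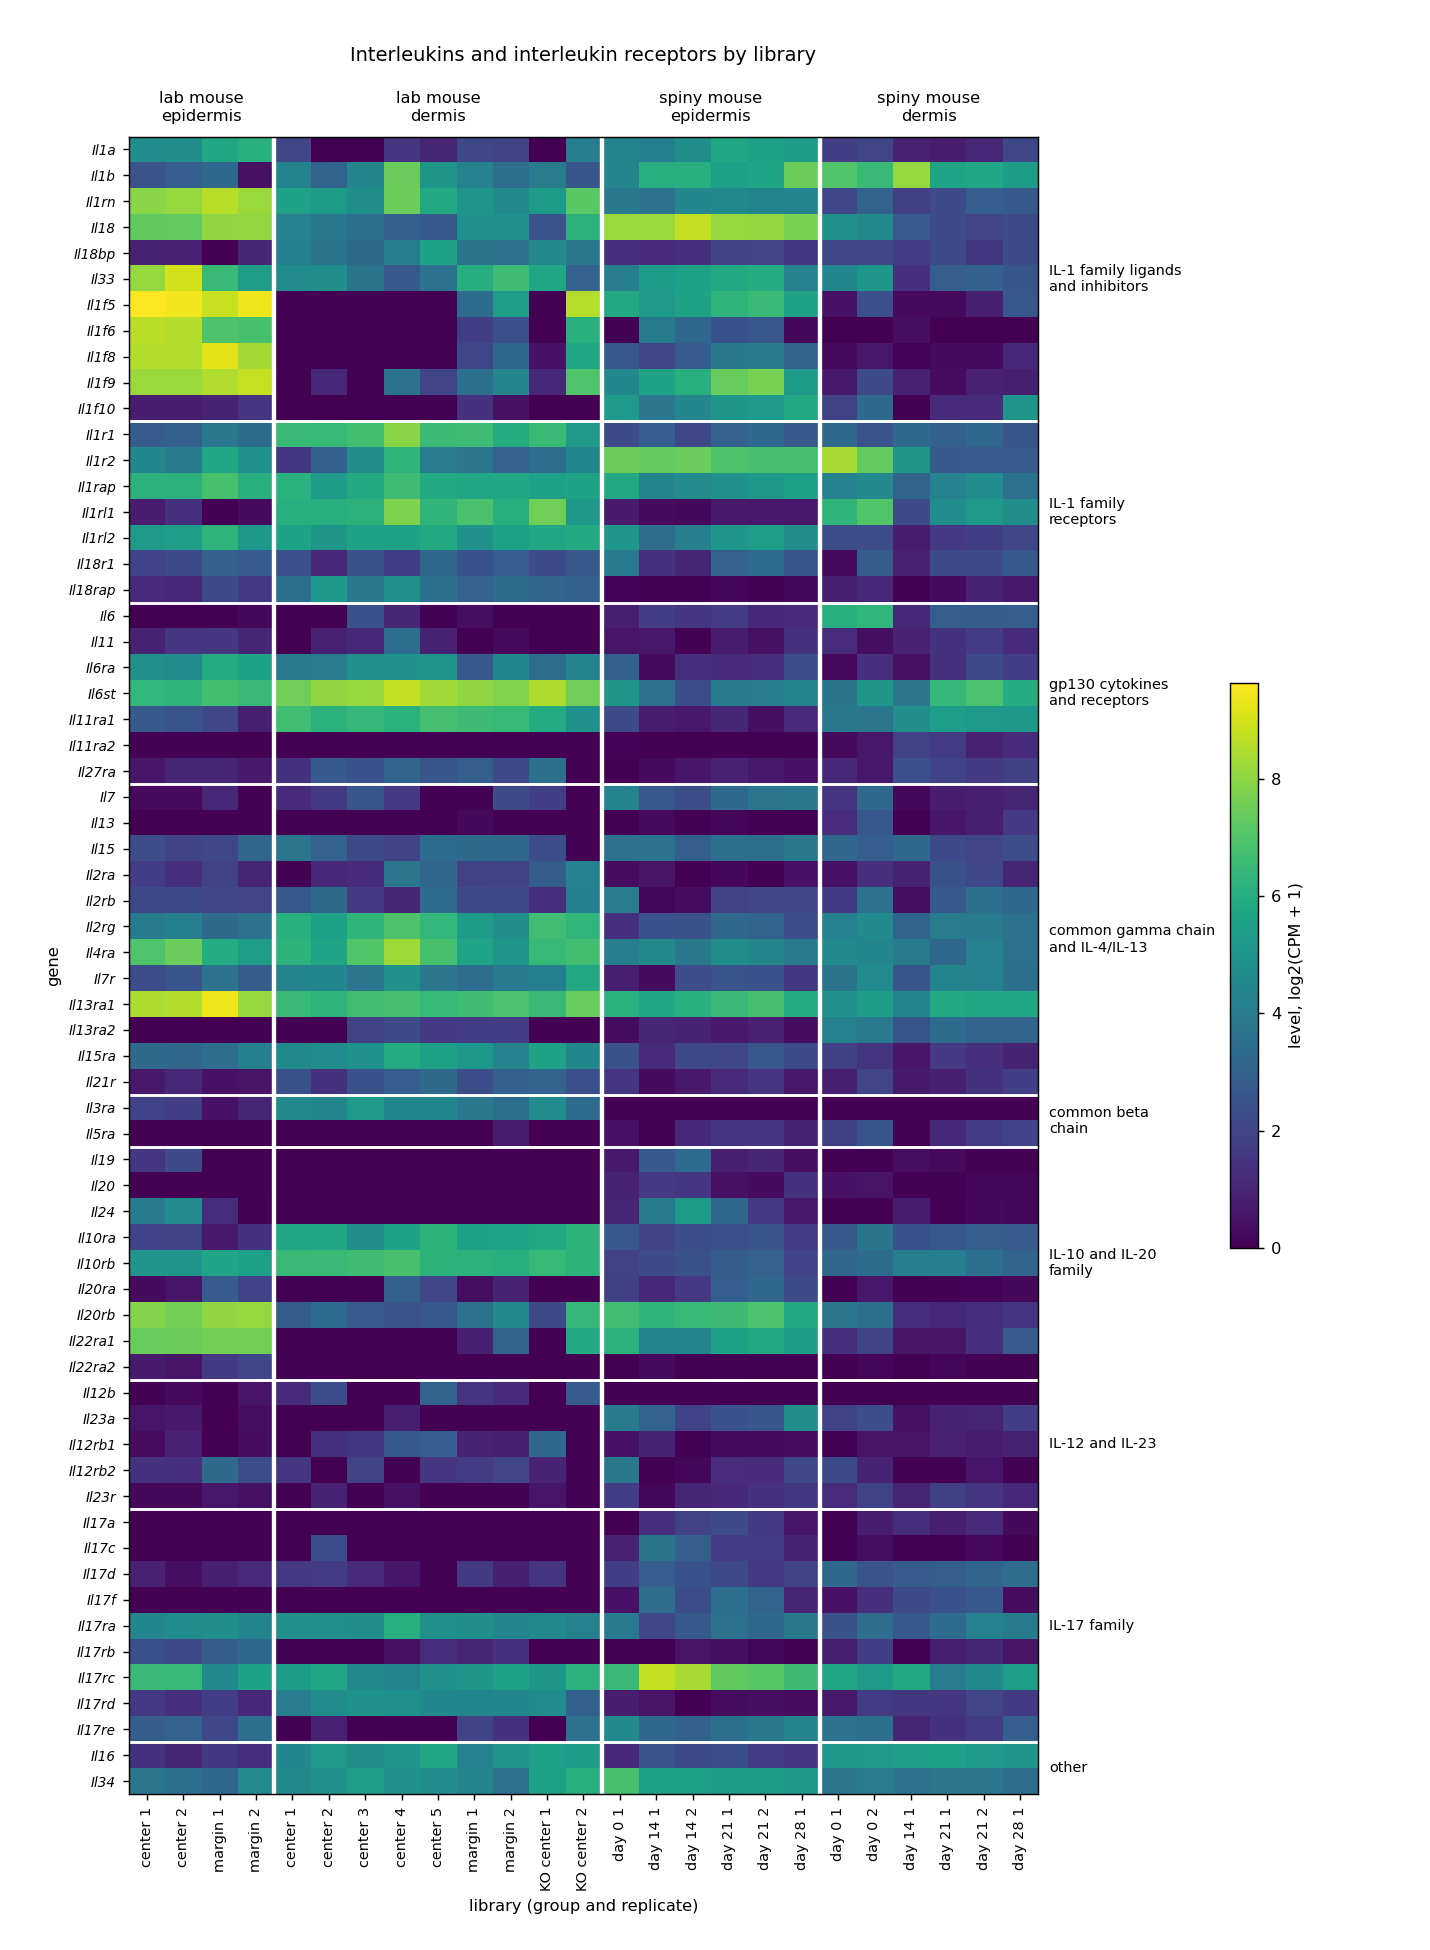
Heat map of the level of 64 members (rows, by family) in all 25 libraries (columns, by species, layer, region, genotype and day); color is log2(CPM + 1), with CPM scaled by TMM within each species and layer. Il18, Il1f9 and the antagonist Il1f5 stand out in the epidermis columns of both species, and Il1f6 and Il1f8 in those of the laboratory mouse. Il1b had a higher mean in dermis than in epidermis in both (17.6 against 2.58 CPM per kb in laboratory mouse, 56.0 against 36.9 in spiny mouse). KO dermis replicate 2 carries several of the IL-1 family members, with Il1f5 at 379 CPM.

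Several members lie side by side in the mouse genome. The IL-1 receptor genes Il1r2, Il1r1, Il1rl2, Il1rl1, Il18r1 and Il18rap span 467 kb of chromosome 1 (40084692 to 40551707, GRCm38), the genes Il1f8, Il1f9, Il1f6, Il1f5, Il1f10 and Il1rn span 198 kb of chromosome 2 (24153172 to 24351491), and Il24, Il20, Il19 and Il10 span 143 kb of chromosome 1 (130882074 to 131024970). The stretches next to the starts of genes from the last 2 clusters are shown because these neighbors are followed together below: Il19 and Il20, which moved the same way in spiny mouse epidermis, and Il1f8 and Il1f9, which had ranks 1 and 3 by level in laboratory mouse epidermis. RefSeq windows on GRCm38.p6 were found for 66 of the 83 members. Each sequence gives the 250 bases before an annotated start, read 5′ to 3′ along the gene, at chr1:130940116-130940365 (minus strand) for Il19, chr1:130911297-130911546 (minus) for Il20, chr2:24152922-24153171 (plus) for Il1f8 and chr2:24186226-24186475 (plus) for Il1f9. The Il19 window lies inside the annotated span of its gene (130932656 to 130945457, minus strand), so it precedes an internal start. The windows of Il20, Il1f8 and Il1f9 adjoin the ends of their genes. Capitals mark matches on either strand to TGANTCA, the letters of the AP-1 motif, or TTCNNNGAA, those of the STAT motif.
Il19: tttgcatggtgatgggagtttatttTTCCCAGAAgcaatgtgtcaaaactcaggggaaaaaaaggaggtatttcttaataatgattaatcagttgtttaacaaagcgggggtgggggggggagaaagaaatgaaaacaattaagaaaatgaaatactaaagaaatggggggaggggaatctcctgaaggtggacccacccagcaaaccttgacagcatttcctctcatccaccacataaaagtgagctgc
Il20: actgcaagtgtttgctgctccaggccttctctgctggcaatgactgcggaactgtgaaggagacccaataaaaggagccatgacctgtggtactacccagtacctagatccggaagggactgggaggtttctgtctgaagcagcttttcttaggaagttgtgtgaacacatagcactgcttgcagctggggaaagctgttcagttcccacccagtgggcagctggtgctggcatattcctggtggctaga
Il1f8: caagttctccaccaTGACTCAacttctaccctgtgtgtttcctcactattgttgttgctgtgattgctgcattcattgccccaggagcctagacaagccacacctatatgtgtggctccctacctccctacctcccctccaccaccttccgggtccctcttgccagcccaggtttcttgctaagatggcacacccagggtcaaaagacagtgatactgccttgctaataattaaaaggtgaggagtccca
Il1f9: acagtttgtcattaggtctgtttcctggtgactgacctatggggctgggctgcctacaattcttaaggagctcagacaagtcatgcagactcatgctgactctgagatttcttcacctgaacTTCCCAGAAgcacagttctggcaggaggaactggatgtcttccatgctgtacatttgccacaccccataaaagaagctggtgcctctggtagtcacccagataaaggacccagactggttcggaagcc
The Il19 window held a STAT match 225 to 217 bases before its internal start. The Il1f9 window held a STAT match 128 to 120 bases before its start. The Il1f8 window held an AP-1 match 236 to 230 bases before its start, while the Il20 window held neither. Among all 32851 windows 7.02% held the STAT letters and 6.75% the AP-1 letters; of 81 windows of members, some with several starts, 9 and 14 did. A match is a description of these letters and not evidence of binding, and its absence says nothing about a factor.

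Epidermis was compared with dermis at the laboratory mouse center and margin and in spiny mouse wounds at PWD21. At the laboratory mouse wound center, 20 of 58 tested members were higher in epidermis than dermis and 14 lower at a false discovery rate (FDR) under 0.05 (edgeR quasi-likelihood test, Benjamini-Hochberg adjustment over all genes), against 26.8% of all tested genes higher and 25% lower. At the margin 20 of 54 were higher and 10 lower, against 20.9% and 26.8%. In spiny mouse wounds at PWD21 30 of 60 were higher and 19 lower, against 29.4% and 33.5%. The median log2 fold changes of the members were −0.18, 0.56 and 0.84, and those of all genes −0.08, −0.16 and −0.06.

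IL-1 family ligands and inhibitors made up a large part of the epidermal side, with 9 of 11 called higher in epidermis at the laboratory mouse center, 7 of 11 at the margin and 9 of 11 in the spiny mouse. In these layer comparisons CPM is scaled over both layers and so differs from the within-layer values used elsewhere. Il1f5 was at 1206 and 1032 CPM in center epidermis and at 0 in all 5 center dermis libraries, at least 8632-fold higher. For Il1f6 the center epidermis stood at least 4400-fold above a dermis without reads, for Il1f8 at least 4260-fold and for Il22ra1, a receptor chain for IL-22 and part of the IL-20 group, at least 1968-fold. At the margin, where the dermis held keratinocyte transcripts (above), the same genes had log2 fold changes of 5.15 for Il1f5 (FDR = 0.000123), 5.82 for Il1f6, 6.97 for Il1f8 and 6.13 for Il22ra1. Il24 had no read in the dermis and was at least 223-fold higher in center epidermis. Il22ra2, a soluble inhibitor of IL-22, was at least 34.5-fold higher in margin epidermis (FDR = 0.00605), a call lost without dermis margin replicate 1 (FDR = 0.0561) or 2 (FDR = 0.0594).

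In spiny mouse PWD21 skin, where both layers were read the same way, Il1f9 was at 192 and 220 CPM in epidermis and 0.257 and 0.818 CPM in dermis (log2 fold change 8.48). Il1f5 followed at 7.46, Il20ra at 7.21 and Il20rb at 6.54; Il20ra and Il20rb are the 2 chains of a receptor for IL-19, IL-20 and IL-24. Il1f6 had no read in the PWD21 dermis and was at least 41.5-fold higher in epidermis. Il18 was at 320 and 297 CPM against 3.68 and 3.02 CPM. The epidermis and dermis libraries overlapped in none of these members, which apart from Il18 was a condition for naming them.

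Of the members lower in epidermis, Il1rl1, the receptor for IL-33, was at 1.03 and 2.09 CPM in laboratory mouse center epidermis and 57.0 to 183 CPM in center dermis (log2 fold change −5.77), with −8.62 at the margin and −5.59 in the spiny mouse. The IL-11 receptor chain Il11ra1 differed by −3.29, −5.07 and −5.49, and Il16, a chemoattractant of CD4+ cells, by −3.81, −3.30 and −3.43. Il10ra, the ligand-binding IL-10 receptor, was lower in laboratory mouse epidermis at center (−3.36) and margin (−4.59), as were the IL-18 binding protein gene Il18bp (−3.69 and −3.44) and Il1r1, the signaling receptor for IL-1, at the center (−3.48). In the spiny mouse Il2ra (−5.12) and the IL-13 decoy receptor gene Il13ra2 (−3.38) followed.

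Across the 48 members tested in all 3 comparisons, 12 were called higher in epidermis in each (Il13ra1, Il17re, Il18, Il1a, Il1f5, Il1f6, Il1f8, Il1f9, Il1rap, Il1rn, Il20rb and Il22ra1) and 4 lower in each (Il11ra1, Il16, Il17rd and Il1rl1). Of all 13366 genes tested in the 3, 13.3% were called higher in each and 16.9% lower in each. The 12 are 60.0% of the calls at each laboratory mouse site and 40.0% of those in the spiny mouse. The 4 called lower in each are 28.6% and 40.0% of the calls at the laboratory mouse center and margin and 21.1% of those in the spiny mouse. Called in opposite directions between a laboratory mouse site and the spiny mouse were Il11, Il15ra and Il17rb. The share of all genes called in this way is not given here. Il17rb had log2 fold changes of 4.29 at the center, 3.16 at the margin and −1.70 in the spiny mouse. The spiny mouse value rests on 11 and 2 reads in PWD21 epidermis and 17 and 34 in PWD21 dermis. Il17rb also overlaps Actr8 on the other strand, and the spiny mouse libraries carry no strand. Whether the fold changes differ between species was not tested.

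**Figure D2:**
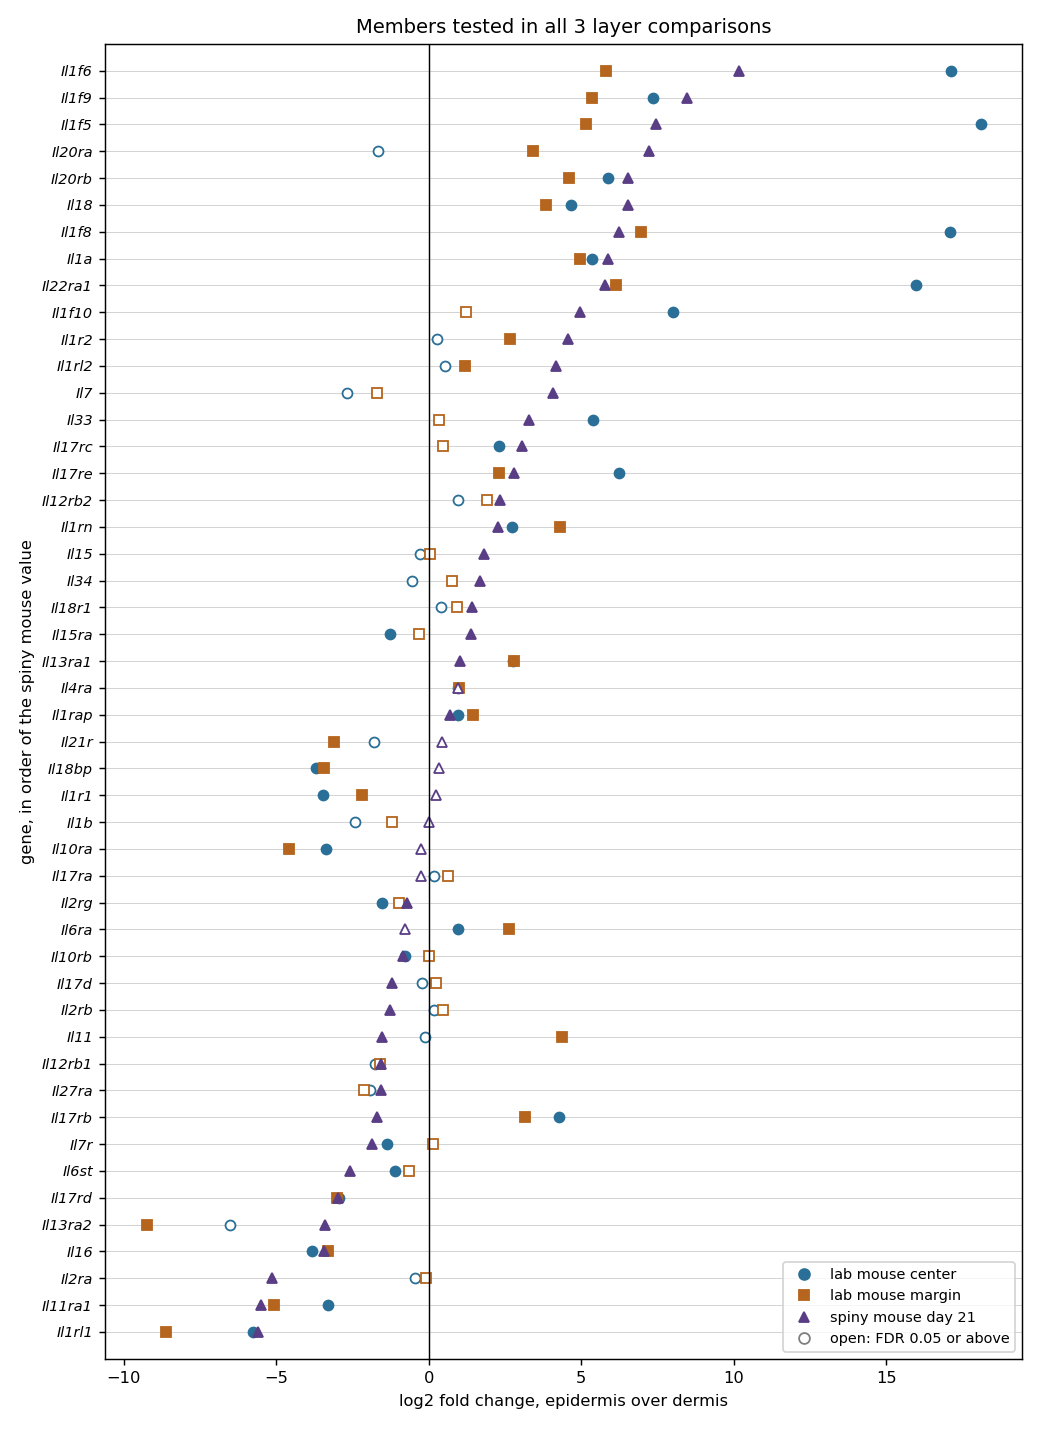
Log2 fold change of epidermis over dermis for the 48 members tested in all 3 layer comparisons (rows); each point is a comparison (laboratory mouse center, laboratory mouse margin, spiny mouse PWD21), filled where FDR is under 0.05 and open otherwise. Il1f5, Il1f6, Il1f8, Il1f9 and Il18 lie to the right and Il1rl1, Il11ra1 and Il16 to the left in all 3; folds past about 10 stand against a dermis without reads and depend on the prior count.

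Among the comparisons of regions, that of the epidermis asked what sets the center epidermis, where hair placodes form, apart from the margin at PWD14. There 1 member of 58 was called higher in the center, Il1f6 (IL-36α), and none lower, against 0.882% and 0.36% of all 14165 tested genes. At an unadjusted p under 0.05, 17 members moved, 9 higher and 8 lower, beside 23.5% of all genes, and DESeq2 called 6 higher and 6 lower. The share of all genes called by DESeq2 is not given beside its counts, here or below. The median log2 fold change of the members was −0.32 and that of all genes −0.02.

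Il1f6 was at 395 and 374 CPM in the center and 124 and 113 CPM in the margin, a log2 fold change of 1.70 ± 0.20 (SE, FDR = 0.0369). Both center libraries lay above both margin libraries, but the call was lost without center replicate 1 (FDR = 0.214) or 2 (FDR = 0.189). Its neighbors in the cluster gave values on both sides. Il1f5 was at 800 and 709 CPM against 454 and 676 CPM, Il1f8 at 372 and 374 CPM against 598 and 325 CPM, and Il1f9 at 289 and 291 CPM against 357 and 450 CPM; none of these 3 passed the test.

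Of the members with the lowest unadjusted p after Il1f6, none passed the adjustment. Il24, an IL-20 group cytokine, was at 15.2 and 24.0 CPM in the center and 1.42 and 0.0458 CPM in the margin (log2 fold change 5.42, FDR = 0.0553). Il33, an alarmin kept in the nucleus, was at 275 and 501 CPM against 93.0 and 41.2 CPM (2.54, FDR = 0.078). The shared IL-4 and IL-13 receptor chain Il4ra was at 125 and 173 CPM against 61.6 and 41.8 CPM (1.54, FDR = 0.0773). In these 3 genes the center libraries were the high ones. Il1a was lower in the center, at 25.7 and 26.8 CPM against 53.5 and 68.3 CPM (−1.22, FDR = 0.078). Il19 had no margin read and 1.91 and 3.67 CPM in the center, at least 30.3-fold, with an FDR of 0.0896. The margin libraries differed more from each other than the center ones, as Il24 and Il13ra1 (677 and 285 CPM) show. Leaving out margin replicate 1 or 2 raised the count of called members, in fits whose spread comes from the center libraries alone.

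Summed neutrophil markers were at 241 and 397 CPM in the center and 122 and 41.0 CPM in the margin, with 4 of 10 at 0 in each center library and 6 and 5 in the margin, and fibroblast markers (none at 0) at 6829 and 5827 CPM against 3059 and 1072 CPM; their part in these differences was not tested. Among the lists of related genes, 1 of 15 tested cytokines and receptors that share chains with interleukins was called, Clcf1, a gp130 ligand, at 4.10 (FDR = 0.039). Of 23 signaling partners 1 was called, the feedback inhibitor Socs3, at 3.23 (FDR = 0.0482). Of 9 genes that process IL-1 family cytokines none was called by edgeR, and none had an unadjusted p under 0.05.

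**Figure D3:**
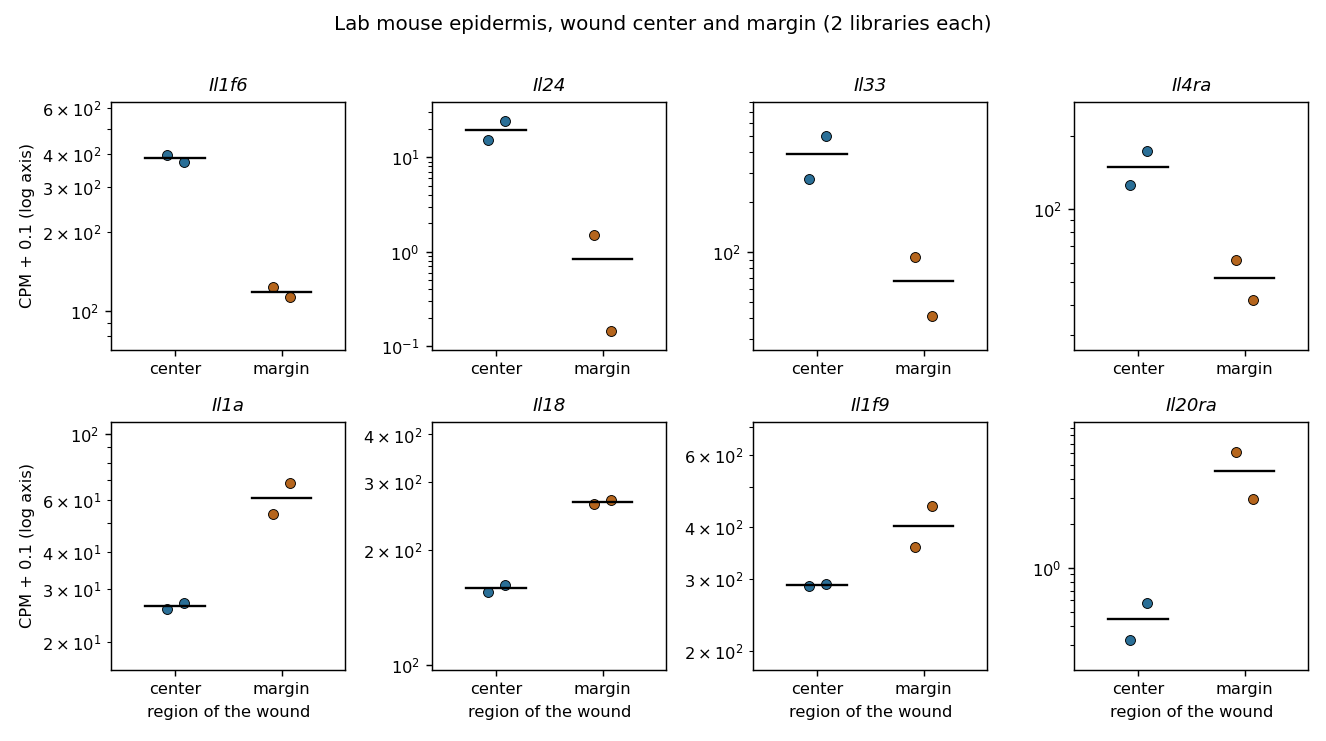
CPM + 0.1 (log axis) of 8 members in the 4 laboratory mouse epidermis libraries, center against margin; each dot is a library and each bar a group mean. Il1f6 sits at 374 and 395 CPM in the center and 113 and 124 CPM in the margin, and the 2 margin libraries lie far apart for Il24.

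The dermis under those regions gave a different picture, in which epidermal transcripts varied between libraries. None of 50 tested members was called higher in the center and 1 lower, Il33, against 0.116% and 0.735% of all tested genes; at an unadjusted p under 0.05 there were 2 higher and 9 lower, beside 15.8% of all genes, and DESeq2 called 7, all lower. The member median was −0.13 and that of all genes −0.03. Il33 was at 24.1 and 26.7 CPM in the 2 center libraries of this comparison and 64.2 and 99.4 CPM in the margin (log2 fold change −1.73 ± 0.31, SE, FDR = 0.0281). It was at 12.04, 5.61 and 11.8 CPM in the other 3 WT center libraries, which are numbered next to the KO libraries. The call was lost without center replicate 1 (FDR = 0.0576) and without margin replicate 1 or 2 (FDR = 0.0765 and 0.61), at log2 fold changes of −1.66, −2.03 and −1.36. The margin also held Il1f9 (10.4 and 20.1 CPM against 0 and 1.10 CPM, −4.88, FDR = 0.0693). Il1f5 was at 9.29 and 40.3 CPM in the margin against 0 in both center libraries, at least 172-fold lower in the center (FDR = 0.0762). For Il1f8 the bound was 39.8-fold and for Il22ra1 30.0-fold (FDR = 0.165 and 0.194).

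All 14 keratinocyte markers tested had an unadjusted p under 0.05 toward the margin, and 9 of them were called; 2 and 0 of the 14 were at 0 in the 2 center libraries and none in the margin. The part of keratinocyte RNA in these values was not tested. Of 16 chain-sharing genes, 23 signaling partners and 8 IL-1 processing genes, edgeR called none, and 2, 1 and 2 of them had an unadjusted p under 0.05.

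Whether the center-to-margin difference was the same in both layers was tested directly in an 8-library model. For 5 of 59 members the epidermal change was the higher one (Il1f5, Il1f6, Il1f8, Il1f9 and Il33) and for none the lower, against 3.34% and 0.135% of all tested genes. At an unadjusted p under 0.05, 10 members were higher and 3 lower, beside 2479 of all 15531 genes in either direction. DESeq2 called 7 members higher and none lower. The 5 called by edgeR all belong to the IL-1 family ligands and inhibitors, among which Il1f5 is a receptor antagonist. The difference of log2 fold changes was 11.5 for Il1f6 (SE 1.21, FDR = 0.00198) and 4.42 for Il33 (SE 0.577, FDR = 0.0031), while it was 4.54 for Il1f9 (FDR = 0.0151), 13.1 for Il1f5 (FDR = 0.00721) and 10.3 for Il1f8 (FDR = 0.0188). Il33 had log2 fold changes of 2.54 in epidermis, which did not pass, and −1.73 in dermis. The size of the values for Il1f5, Il1f6 and Il1f8 depends on the prior count, since the 2 center dermis libraries held no read of them. The median over all genes in this contrast was 0.31, and scaling by DESeq2's size factor method moved it by −0.14; members' values are read relative to that shift. With genes under 10 counts in any library left out, 1 member was called. Without dermis center replicate 1 or 2, or dermis margin replicate 2, there were 2, 3 and 3 calls.

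The center dermis under Twist1-deleted epidermis was compared with WT, in 2 KO and 3 WT libraries. No member of 46 was called by edgeR in either direction, against 0.0494% and 0.00706% of all 14163 tested genes. At an unadjusted p under 0.05 there were 5 higher and 3 lower, against 11.5% of all genes, and DESeq2 called 5. The members' median log2 fold change was −0.21 and that of all genes −0.07. The KO libraries differed widely from each other. Leaving out KO replicate 1 raised the number called and leaving out KO replicate 2 did not, in fits whose spread comes from the WT libraries alone.

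Il20rb was at 3.70 and 84.9 CPM in KO replicates 1 and 2 and at 5.96, 4.58 and 5.15 CPM in WT (3.08, FDR = 0.33). Il1f9 was at 1.09 and 127 CPM against 0, 11.8 and 3.08 CPM (3.83, FDR = 0.369). In both genes the groups overlapped, and without KO replicate 2 the fold changes turned to −0.48 and −1.98. That library also held Il1f5 at 379 CPM, Il1f6 at 69.2, Il22ra1 at 58.2, Il1f8 at 54.3, Il18 at 71.7 and Il1rn at 143 CPM. KO replicate 1 held Il1f8 at 0.395 CPM and no read of Il1f5, Il1f6 or Il22ra1. The keratinocyte marker sum of KO replicate 2 was 38243 CPM. It was 1082 CPM in KO replicate 1 and 13.6 to 650 CPM over all 5 WT center libraries. The 650 CPM belongs to a WT library outside this comparison, and KO replicate 1 also lay above every WT center library. The part of keratinocyte RNA in these values was not tested.

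The other members named here were picked for their low unadjusted p, and none was called. Il17rc was at 33.1 and 73.3 CPM in KO and 23.0, 19.7 and 28.6 CPM in WT (1.17, FDR = 0.361). Il11ra1, whose reads may be shared with its near copy Il11ra2 and with genes that overlap it, was at 60.7 and 30.0 CPM against 84.9, 71.4 and 111 CPM (−0.95, FDR = 0.394). Il1b was at 15.8 and 4.95 CPM against 20.1, 174 and 33.1 CPM (−2.84, FDR = 0.366). The high value is WT center replicate 4, in which summed neutrophil markers reached 902 CPM against 26.7 to 205 CPM in the other WT center libraries; that relation was not tested. Of 16 chain-sharing genes, 23 signaling partners and 8 IL-1 processing genes, edgeR called none, and 3, 2 and 3 had an unadjusted p under 0.05.

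In spiny mouse epidermis the wound at PWD14 was set against that at PWD21. Of 51 tested members 8 were higher at PWD14 and 16 lower, against 23.4% and 23.2% of all tested genes. The median of the members was −0.64 and that of all genes −0.04. Il19, Il20 and Il24, the IL-20 group cytokines, were among the 8, and receptor genes such as Il20ra, Il22ra1, Il17ra, Il1rl2, Il2rb and Il18r1 were among the 16. The PWD14 libraries had 26.8 and 24.4% of their reads on genes and TMM factors of 0.72 and 0.757, against 34.1 and 38.3% and 1.06 and 1.09 at PWD21. Summed keratinocyte markers were at 126125 and 112725 CPM at PWD14 and 80453 and 75161 CPM at PWD21, with 3 of 14 called higher and 4 lower. The part of these differences in the calls was not tested.

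Il19 was at 5.49 and 9.28 CPM at PWD14 and 0.756 and 1.05 CPM at PWD21 (3.12, FDR = 0.000296). The single PWD0 and PWD28 libraries held 0.621 and 0.313 CPM, so PWD14 was the high time. Il24 was at 14.9 and 37.6 CPM against 8.43 and 1.997 CPM (2.25, FDR = 0.00454), and at 1.01 and 0.547 CPM at PWD0 and PWD28. Il20 was at 2.04 and 1.86 CPM against 0.364 and 0.21 CPM (2.64, FDR = 0.0055), but at 0.932 and 1.56 CPM at PWD0 and PWD28. Il10, in the same cluster, had too few reads to be tested. No receptor chain for these cytokines was called higher at PWD14. Il20ra was at 1.18 and 2.02 CPM at PWD14 and 6.44 and 8.36 CPM at PWD21 (−2.12), with 2.56 and 3.52 CPM at PWD0 and PWD28, so PWD21 was its high time. Il22ra1 was at 18.9 and 19.4 CPM against 45.0 and 55.7 CPM (−1.37), while Il20rb was at 77.7 and 86.0 CPM against 96.3 and 119 CPM and did not pass.

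Within the IL-17 family, Il17c, a ligand made by epithelial cells, was at 12.2 and 6.66 CPM against 2.32 and 2.21 CPM (2.03, FDR = 0.00147). The lone PWD0 and PWD28 libraries held 0.854 and 0.938 CPM. The receptor chain Il17rc was at 433 and 335 CPM against 155 and 139 CPM (1.40, FDR = 0.000152), with 90.9 CPM at PWD0 and 95.7 CPM at PWD28. The partner chain Il17ra was lower at PWD14 than at PWD21 (−1.20, FDR = 0.0161). Il17a and Il17f, made by T cells and innate lymphocytes, were at 1.51 and 2.78 and at 10.01 and 3.88 CPM at PWD14 and did not pass against PWD21, where they were at 3.64 and 2.10 and at 10.5 and 7.73 CPM.

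The IL-1 family divided. Il1f6 was at 14.9 and 8.35 CPM at PWD14 and 4.42 and 5.15 CPM at PWD21 (1.28, FDR = 0.00919; 0.0513 without PWD14 replicate 1 and 0.0618 without PWD21 replicate 1). In the same genomic cluster Il1f9 went the other way, from 46.3 and 66.6 CPM at PWD14 to 168 and 201 CPM at PWD21 (−1.69, FDR = 0.000125), as did Il1f8 (3.23 and 6.07 against 14.1 and 14.2 CPM, −1.55), Il1f5 (−0.96) and Il1f10 (−0.98). Il1rl2, the IL-36 receptor, was lower at PWD14 as well (−1.41, FDR = 0.00137). Il1b was higher at PWD14 than at PWD21 (0.56, FDR = 0.0223). Il1a was at 19.3 CPM at PWD0, 17.1 and 26.6 CPM at PWD14, 52.9 and 44.9 CPM at PWD21 and 38.4 CPM at PWD28 (−1.14, FDR = 0.00248), so the PWD21 libraries were the high ones.

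Il2rb, a receptor chain for IL-2 and IL-15, was at 0.108 and 0.253 CPM against 2.69 and 3.31 CPM (−3.90, FDR = 0.00128), and the IL-18 receptor gene Il18r1 at 1.61 and 1.01 CPM against 7.09 and 9.41 CPM (−2.64, FDR = 0.000806). Summed T cell markers were 90.4 and 70.9 CPM at PWD14 and 57.3 and 49.1 CPM at PWD21, and 3 of 11 were called, all higher at PWD14. Summed neutrophil markers were at 3481 and 2002 CPM against 389 and 169 CPM, with 6 and 3 of 10 at 0 at PWD14 and 1 and 4 at PWD21; their part in the member values was not tested.

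Lists of related genes were counted as well, and their relation to the members was not tested. Of 22 tested signaling partners 3 were higher at PWD14 (Sigirr, Socs1 and Socs3) and 15 lower, against 23.4% and 23.2% of all tested genes. Among the 15 were Jak1 (−1.66), Stat3 (−0.78), Stat6 (−1.46) and Myd88 (−1.97). Of 11 chain-sharing genes, the gp130 ligand genes Clcf1 and Lif were higher and Csf1r and Osmr lower. Of 8 genes of IL-1 processing, Aim2 and Pycard were higher and Nlrp1a lower.

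Against the single unwounded library of PWD0, 11 of 60 members were higher at PWD14 and 16 lower, against 22.7% and 26.1% of all tested genes, in a fit that takes the lone library to vary as the other times do. The medians were −0.18 for members and −0.15 for all genes. This contrast shares its PWD14 libraries with the one above, so their values are not independent. Il1f6 had no read at PWD0 and was at least 49.8-fold higher at PWD14 (FDR = 0.000239); Il17a was at least 9.21-fold higher. Il24 (4.71, FDR = 0.00327), Il17f (4.09) and Il19 (3.58, FDR = 0.00212) followed. That both PWD14 libraries lay above the PWD0 library was a condition for naming these 5.

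On the other side, Il12rb2, a chain of the IL-12 receptor, was at 13.7 CPM at PWD0, 0 and 0.0844 CPM at PWD14, 1.32 and 1.21 CPM at PWD21 and 3.13 CPM at PWD28 (−7.97, FDR = 3.28e-05). Il2rb had 16.1 CPM at PWD0, 2.69 and 3.31 CPM at PWD21 and 3.20 CPM at PWD28 (−6.36 at PWD14, FDR = 2.01e-05). Il18r1 (−3.55), Il6ra (−2.97), Il11ra1 (−2.52), Il7 (−2.05) and Il34, a ligand of the CSF-1 receptor on Langerhans cells (113 CPM at PWD0 and 43.8 and 42.2 CPM at PWD14, −1.40), were also lower. Among related lists, 4 signaling partners were higher and 13 of 22 lower, with Jak1 at −2.91 and Socs3 at 1.75. Of 12 chain-sharing genes 2 were higher and 8 lower, and of 8 IL-1 processing genes 4 were higher and 1 lower. Of all tested genes 22.7% were higher and 26.1% lower.

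Marker sums differed between these times as well. From PWD0 to PWD14, neutrophil markers were at 7.14 CPM against 3481 and 2002 CPM (5 of 10 at 0 at PWD0 and 6 and 3 at PWD14), keratinocyte markers at 45665 against 126125 and 112725 CPM and T cell markers at 41.1 against 90.4 and 70.9 CPM. Langerhans and dendritic cell markers were at 570 CPM at PWD0 and 1204 and 1173 CPM at PWD14, with 5 of 7 tested called higher, while Il34 was lower. Skeletal muscle markers were at 112 CPM at PWD0 and 37.9 to 39.4 CPM at PWD14. Their part in the member values was not tested.

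**Figure D4:**
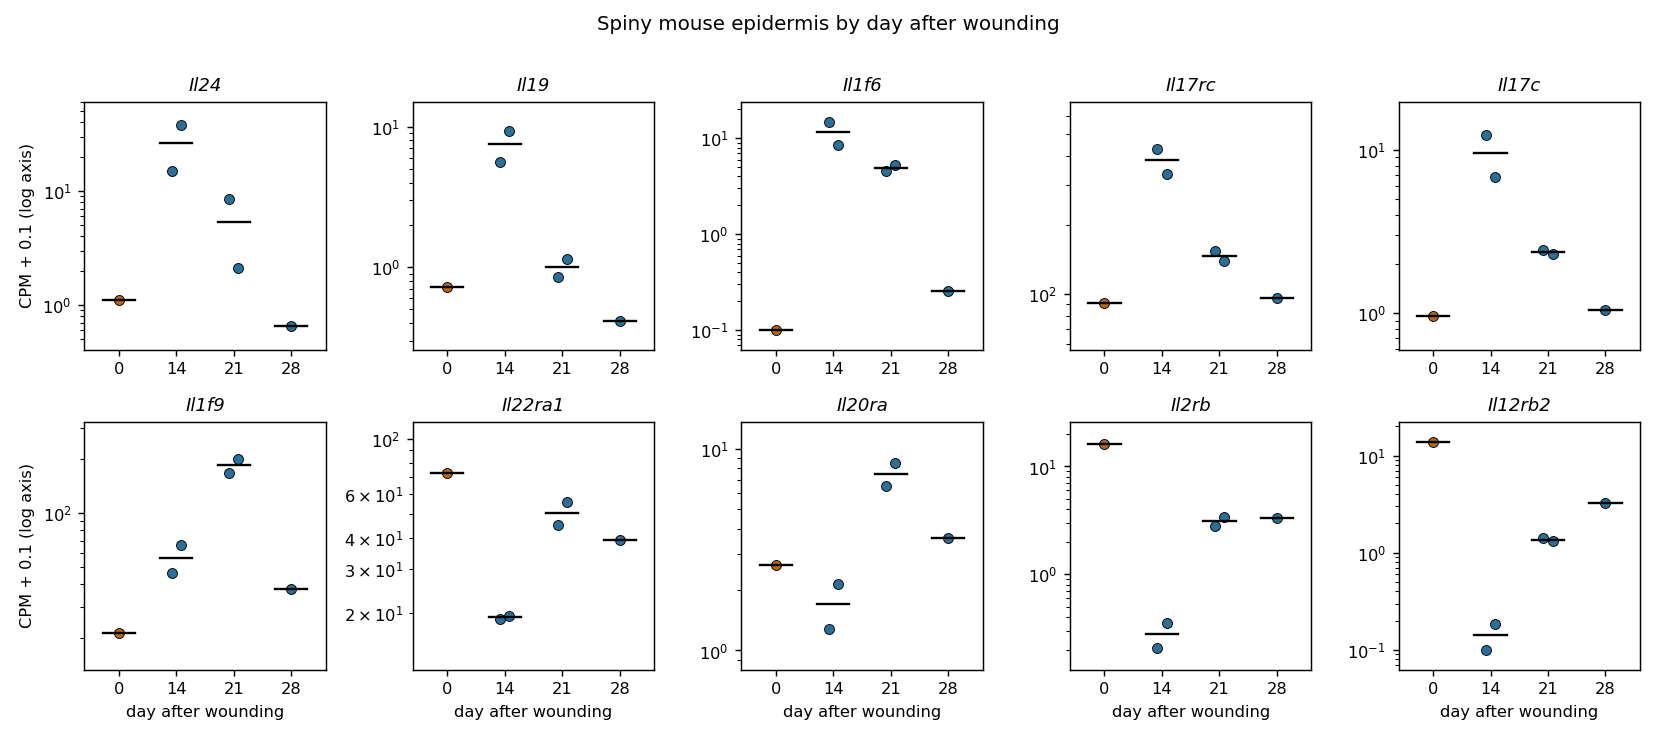
CPM + 0.1 (log axis) of 10 members in the 6 spiny mouse epidermis libraries by post-wound day (0, 14, 21 and 28); dots are libraries, bars the means of days. Il19, Il24 and Il17rc are highest at PWD14 (Il17rc at 335 and 433 CPM), Il1f9 is highest at PWD21 (168 and 201 CPM), and Il2rb and Il12rb2 are highest in the single PWD0 library.

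In spiny mouse dermis the wound at PWD21 was set against unwounded skin. Of 56 tested members 3 were higher at PWD21 and 15 lower, against 12% and 14.2% of all tested genes, and the medians were −0.67 and 0.03. Il6, a cytokine of acute inflammation, and the decoy receptor Il1r2 were among those that fell, and the gp130 chain Il6st was among those that rose.

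Il6 was at 69.0 and 80.0 CPM at PWD0, 1.12 CPM at PWD14, 6.51 and 6.21 CPM at PWD21 and 6.60 CPM at PWD28 (−3.59 for PWD21, FDR = 0.000331). Il1r2 was at 334 and 159 CPM at PWD0, 33.0 CPM at PWD14, 5.43 and 5.75 CPM at PWD21 and 5.77 CPM at PWD28 (−5.50, FDR = 0.000284). For both genes the 2 PWD0 libraries lay above all 4 later ones. Il20rb (13.1 and 10.6 CPM against 1.16 and 1.41 CPM, −3.23), Il18 (28.1 and 23.3 against 3.71 and 3.08 CPM, −2.96) and the lymphocyte growth factor Il7 (1.76 and 8.42 against 0.646 and 0.777 CPM, −2.88, FDR = 0.0251) also fell. Il33 (21.6 and 33.0 against 6.55 and 6.99 CPM, −2.05) and its receptor Il1rl1 (79.4 and 128 against 25.9 and 36.3 CPM, −1.78) fell together, as did Il1b (129 and 93.0 against 49.0 and 52.9 CPM, −1.16).

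The 3 that rose were Il6st (85.7 and 120 CPM against 12.1 and 33.8 CPM, 2.13, FDR = 0.0123), Il11ra1 (41.5 and 36.0 against 14.0 and 13.0 CPM, 1.48, FDR = 0.0103) and Il17f (4.44 and 5.15 against 0.39 and 1.52 CPM, 2.22, FDR = 0.0374). These counts carry no strand, so reads of the genes overlapping Il11ra1 and of Il1bos opposite Il1b cannot be told apart from them. Leaving out PWD21 replicate 1 or 2 lowered the calls from 18 to 6 or 8, and Il17f was lost in both, Il11ra1 without replicate 1 (FDR = 0.0744) and Il6st without replicate 2 (FDR = 0.0747). Il7, lost in both as well, also missed without PWD0 replicate 2 (FDR = 0.332), as did Il17f without PWD0 replicate 1 (FDR = 0.0765). Of the related lists, Myd88 alone of 23 signaling partners was called (higher); among 14 chain-sharing genes Csf1r was higher and Lif was among those lower, and of 7 IL-1 processing genes Pycard was lower.

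Marker sums moved with these calls. Summed mast cell markers were at 6753 and 5322 CPM at PWD0, 120 CPM at PWD14, 646 and 530 CPM at PWD21 and 1286 CPM at PWD28, and all 9 were called lower at PWD21; none was at 0 in any dermis library. Keratinocyte markers were at 13531 and 8106 CPM at PWD0, 2142 CPM at PWD14, 730 and 1375 CPM at PWD21 and 4094 CPM at PWD28, with 12 of 14 called lower. Skeletal muscle markers were at 937 to 1946 CPM at PWD0 and 308 to 475 CPM later. In the other direction, endothelial markers were at 159 and 263 CPM at PWD0 and 488 and 707 CPM at PWD21, with 4 of 8 called higher, and fibroblast markers at 126324 and 73091 CPM against 143331 and 182798 CPM, with 8 of 15 called higher. Their part in the member values was not tested.

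The single PWD14 dermis library, compared with the same PWD0 libraries, had 1 member higher and 16 lower of 60, against 7.95% and 10.5% of all tested genes, with medians of −1.55 and −0.05. Il1b was the member that rose, at 278 CPM against 129 and 93.0 CPM (1.32, FDR = 0.028). Summed neutrophil markers were 156 CPM at PWD14 against 24.6 and 27.9 CPM at PWD0, with 2 of 10 at 0 at PWD14 and 2 and 3 at PWD0; this was not tested as a source. Il6 fell by 6.04 (FDR = 0.000434), Il1rl1 by 4.86 and Il33 by 4.14 on the log2 scale. Il1f10, Il5ra, Il13 and Il17rb had no read at PWD14 and were at least 27.4-, 17.2-, 15.4- and 7.42-fold lower than at PWD0. Il13 and Il5ra, from type 2 immunity, were low at PWD0 too (1.37 and 5.11 CPM, and 2.54 and 4.69 CPM). Without PWD0 replicate 1 the calls numbered 26 rather than 17, and without PWD0 replicate 2 that of Il17rb was lost (FDR = 0.143). Of 23 signaling partners, 14 chain-sharing genes and 7 IL-1 processing genes, 2, 2 and 1 were called lower and 0, 0 and 1 higher.

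**Figure D5:**
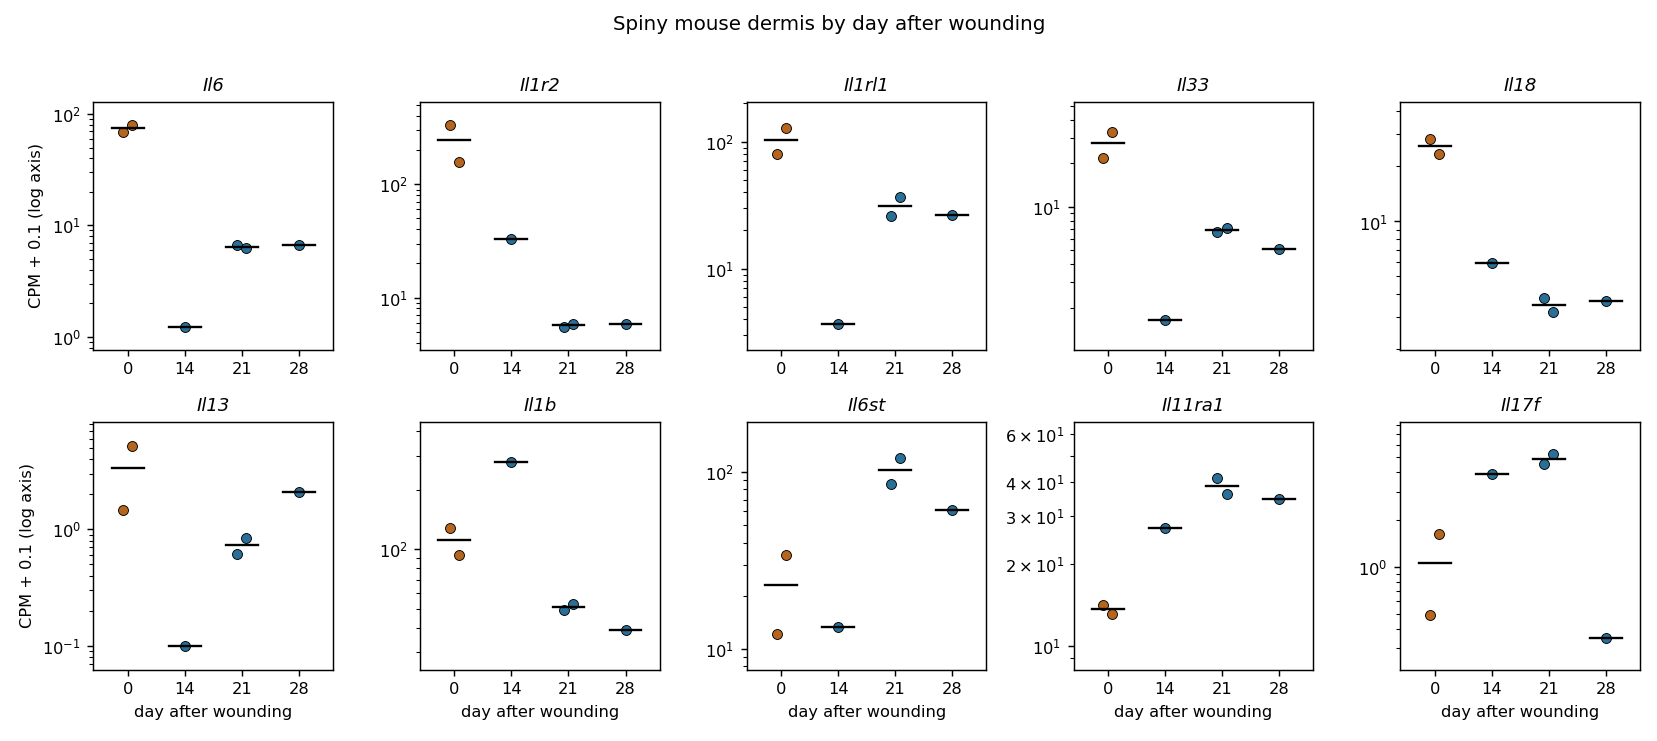
CPM + 0.1 (log axis) of 10 members in the 6 spiny mouse dermis libraries by post-wound day (0, 14, 21 and 28); dots are libraries, bars the means of days. Il6 and Il1r2 are highest in both PWD0 libraries (Il6 at 69.0 and 80.0 CPM), Il1b is highest in the PWD14 library (278 CPM), and Il6st and Il11ra1 are higher at PWD21 than at PWD0.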

How the data were processed

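RNA-seq of 25 libraries was analysed, 13 of laboratory mouse and 12 of spiny mouse skin. Alignment by the authors was to mm10, using STAR (2.4.1d in the submitters' processing notes; the paper's methods name another release) and deposited raw counts per gene from HTSeq 0.6.0; its strand option is not given in the sources used here. The 5 summary lines of each file were left out of library sizes. Low counts were removed with filterByExpr, libraries scaled by TMM, and groups compared with the edgeR 4.0.16 quasi-likelihood test in R 4.3.3 (prior count 0.125, FDR under 0.05 over all tested genes). Groups with a single library were tested in a fit over the 6 libraries of the layer. Levels are CPM scaled within a species and layer, per kilobase of the union of exons (GENCODE M21) where genes are compared. The fits were tested on simulated data.

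The members and lists were chosen with earlier results of these data known. Named were a preset group of members and, per comparison, up to 5 called in each direction with the largest fold changes, groups that did not overlap and a mean of at least 1 CPM; where fewer than 3 were called, also up to 5 with the lowest p. Other members in the text were chosen after their values were seen. Alternatives were DESeq2 1.42.0, the edgeR 3 estimate, DESeq2-type size factors, other filters and leaving out each library. Of the 83 members 29 overlap another gene on the genome, so their counts are less certain.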

Additional observations from a re-analysis of the deposited data

Results flagged for a closer look

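Among the 5 WT center dermis libraries, 46 members were checked for a library far from the other 4, and 10 had one, as had 7.16% of all 13478 genes held to the same minimum mean of 1 CPM; chance alone gives about 1 in 20. Replicate 4 was far above the other 4 for 7 of the 46 members, against 136 (1.01%) of all 13478 genes. Among those with any such library, these were 7 of 10 members and 136 of 965 genes. The 7 were Il1b (174 CPM), the IL-1 receptor antagonist Il1rn (175 CPM), Il1r1 (240 CPM), Il1rl1 (218 CPM), Il17ra (64.7 CPM), Il11 (10.1 CPM) and Il1f9 (11.8 CPM). The summed neutrophil markers of replicate 4 were 902 CPM against 26.7 to 205 CPM in the others, with 2 of 10 at 0; their part was not tested. Replicate 3 was the high library for Il6 (4.42 CPM) and Il3ra (34.8 CPM), and replicate 5 for Il18bp (46.3 CPM).

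The center-to-margin change differed between epidermis and dermis, by the interaction test, for Il1f5 (13.1 on the log2 scale), Il1f6 (11.5), Il1f8 (10.3), Il1f9 (4.54) and Il33 (4.42). Keratinocyte markers in the margin dermis were at 2398 and 4479 CPM against 650 and 444 CPM in the 2 center dermis libraries of that model, and 8 of 14 keratinocyte markers were called in the same direction. So were 4 of 8 endothelial markers (Emcn, Kdr, Tie1 and Vwf), 5 of 15 fibroblast markers (Col5a1, Dcn, Fbn1, Fstl1 and Pdgfrb), S100a8 and S100a9 of the 5 neutrophil markers tested, and 1 of 12 macrophage and monocyte markers (C1qc). The part of any of these in the member values was not tested.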

How the results depend on the processing

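No paired analysis was possible because the labels tie no library to an animal or a wound. Center and margin, and the layers, may share wounds. What follows is the number of members called in each comparison. The share of all genes called in each setting is not given beside it, so it describes only how stable the calls were. For epidermis center against margin it was 1, and became 12 with DESeq2, 0 with the edgeR 3 estimate, 2 without a low-count filter and 1 to 33 when a library was left out. For dermis center against margin it was 1, and became 7 with DESeq2, 0 with the edgeR 3 estimate, 2 with all 5 WT center libraries and 0 to 2 when a library was left out. For KO against WT it was 0, and became 5 with DESeq2 and 0 to 15 with a library left out; without KO replicate 2 the fold changes of Il20rb and Il1f9 turned to −0.48 and −1.98 (ranges over left-out libraries −0.48 to 4.003 and −1.98 to 5.44). Calls ranged over left-out libraries from 17 to 30 (spiny mouse epidermis, PWD14 against PWD21), 6 to 20 (dermis, PWD21 against PWD0), 29 to 32 and 17 to 26 (PWD14 against PWD0, epidermis and dermis), 26 to 35, 21 to 33 and 41 to 47 (layers at the laboratory mouse center, its margin and spiny mouse PWD21) and 2 to 6 (interaction). Requiring 10 counts in every library, which tests fewer genes, gave 31 calls for the spiny mouse layers and 1 for the interaction. All other counts stayed within 1.5 times. For the other changes the cause was not tested. Il4, Il5, Il9, Il21 and Il31 passed the count filter in no comparison and could not be compared at this depth.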

Other observations

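The single PWD28 library of each spiny mouse layer entered no comparison, and its values are given without a test. In epidermis, Il1b was at 178 CPM at PWD28, above its range of 19.7 to 67.4 CPM over the 5 other libraries, and the IL-23 subunit gene Il23a was at 26.8 CPM against 2.87 to 15.3 CPM. Il1f10, an IL-1 family ligand also known as IL-38, was at 55.2 CPM in that library against 13.1 to 35.4 CPM. In dermis the PWD28 library held Il1f10 at 30.7 CPM against 0 to 8.83 CPM in the other 5, and Il22ra1 at 6.02 CPM against 0.421 to 2.90 CPM. Keratinocyte markers in that dermis library summed to 4094 CPM, between the PWD21 and PWD0 values, and their part was not tested. Il18 at 207 CPM and Il20rb at 55.6 CPM were lower in the PWD28 epidermis than in the 5 other epidermis libraries (272 to 433 and 77.7 to 119 CPM).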
